A study of Mus musculus with 6 samples.

Results

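The genes described here are 10 nuclear factors of endocrine differentiation: Neurog3, Pax4, Fev, Insm1, Neurod1, Nkx2-2, Rfx6, Pax6, Isl1 and Tox3. They were taken by name, as 10 of the 35527 genes to which reads were summed, and 9 of the 10 had enough reads to be among the 15805 genes tested. The data are bulk RNA-seq of whole pancreas from C57BL/6 mice at postnatal day 1. The KO group, labelled miR216a-/- in the study's design, held 3 mice, and the WT group held 3 mice. Every library is labelled with a separate donor, and no allele or treatment other than the KO genotype was labelled. The sources used here do not say how the miR-216a deletion was made, which cells it affects, or the sex and litter of the pups. Mir216a itself was not analysed here, so the genotypes rest on the labels.

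Islet cells arise in the embryonic pancreas from ductal progenitors that switch on Neurog3 for a short time. Neurog3 then activates a chain of further factors, and its product is lost again as cells leave the progenitor state. Later factors such as Neurod1, Pax6 and Isl1 stay on in mature islet cells, where they keep hormone genes and secretion genes active. In the mouse, new endocrine cells form mainly before birth, so that a newborn pancreas holds many differentiated islet cells and few Neurog3-positive ones. Several of these factors are also used outside the pancreas, among others in enteroendocrine cells, sensory neurons and the brain.

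MicroRNAs pair with messenger RNAs mainly through their seed, bases 2 to 8 from the 5′ end. The mature strands of the deleted miRNA are printed because their seeds set which sites were searched. They are credited to RefSeq, GRCm38.p6, lie on the plus strand at chr11:28757018-28757039 (5p) and chr11:28757058-28757079 (3p), and are written 5′ to 3′ with the seed in capitals.
miR-216a-5p: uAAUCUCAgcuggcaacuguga
miR-216a-3p: cACAGUGGucucugggauuaug

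The longest annotated 3′ UTR of every factor (GENCODE M21) was searched for 7-base matches to either strand of miR-216a. A match was complementary to bases 2 to 8, or was complementary to bases 2 to 7 and then ended in an A. Matches to miR-216a-5p, TGAGATT or GAGATTA, occurred in 0 of the 10 factors, against 17% of the 15069 tested genes that have such a UTR. Matches to miR-216a-3p, CCACTGT or CACTGTA, occurred in 2 of the 10, Neurod1 and Tox3, against 26.1% of the same genes. The 3 matches are printed with the bases around them because they are the only such matches among the factors. They lie on the minus strand of GRCm38, and the 7 bases of each match are in capitals. The Neurod1 match starts at base 36 of a 3′ UTR of 1443 bases, and the Tox3 matches start at bases 684 and 773 of 1234. The Tox3 match at base 773, CACTGTA, is complementary to bases 2 to 7 only. A match is a stretch of letters only, and binding was not measured.
Neurod1, chr2:79453911-79453939: gggaaacgaatCCACTGTgcgtacagtga
Tox3, chr8:90247573-90247601: aatatctatggCCACTGTtagcccattat
Tox3, chr8:90247484-90247512: gaaaataaaaaCACTGTAtttttaaaagg

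The libraries held 20565387 to 23028718 estimated reads each. Digestive enzyme genes of a 28-gene acinar list took 36.0 to 39.5% of the counts in KO and 32.1 to 38.9% in WT, as a check of the label of whole pancreas. Levels are given as CPM, read counts scaled to a common library size with TMM factors, and errors are SDs over 3 libraries. The libraries also differed in other ways. Erythroid genes were high in KO 2, with a sum of 4801 CPM, and in WT 1, with 5945 CPM, while the other 4 libraries had 1706 to 2839 CPM. Ddx3y, a Y-linked gene, was near 0 in KO 1, with 0.14 CPM, while the other 5 libraries had 61.8 to 102.2 CPM. Eif2s3y, also Y-linked, was at 0 CPM in KO 1 and at 43.3 to 60.6 CPM in the other 5. Y-linked RNA was thus nearly absent from 1 KO library and from none of the WT libraries. Alb, the liver's albumin gene, was high in WT 1, with 219.2 CPM, while the other 5 libraries had 6.41 to 15.1 CPM. All 20 genes of an S, G2 and M phase list were below WT in every KO library, summing to 992.1, 645.2 and 383.8 CPM in KO and to 1321, 1407 and 1596 CPM in WT. None of the 20 was called, and the part of these differences in the values below was not tested.

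None of the 9 factors tested was called. The test was edgeR's quasi-likelihood test with Benjamini-Hochberg adjustment over all tested genes, a gene being called at an adjusted p under 0.05, and 0% of the 15805 genes were called. The adjusted p of the factors ran from 0.34 to 0.97, and the smallest over all genes was 0.21. In group means, 7 of the 9 factors were higher in KO and 2 lower, where 51.2% of all tested genes were higher and 48.8% lower. Their median log2 fold change, KO over WT, was 0.26, and that of all tested genes was 0.01. The KO and WT libraries of 2 factors did not overlap, Tox3 above and Insm1 below WT, where 19.4% of all tested genes had groups without overlap, 9.07% above and 10.3% below. Tox3 was the 1 factor with an unadjusted p under 0.05, higher in KO, where 12.6% of all tested genes reached that and 5.62% reached it with KO higher. DESeq2 called 2.65% of the genes it tested, limma-voom 0.0127%, and edgeR without KO 1 called 2.25%, with 0 of the 9 factors among the calls in any of the 3. In RNA from a whole organ, fewer cells of a type and less RNA per cell cannot be told apart.

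**Figure D1:**
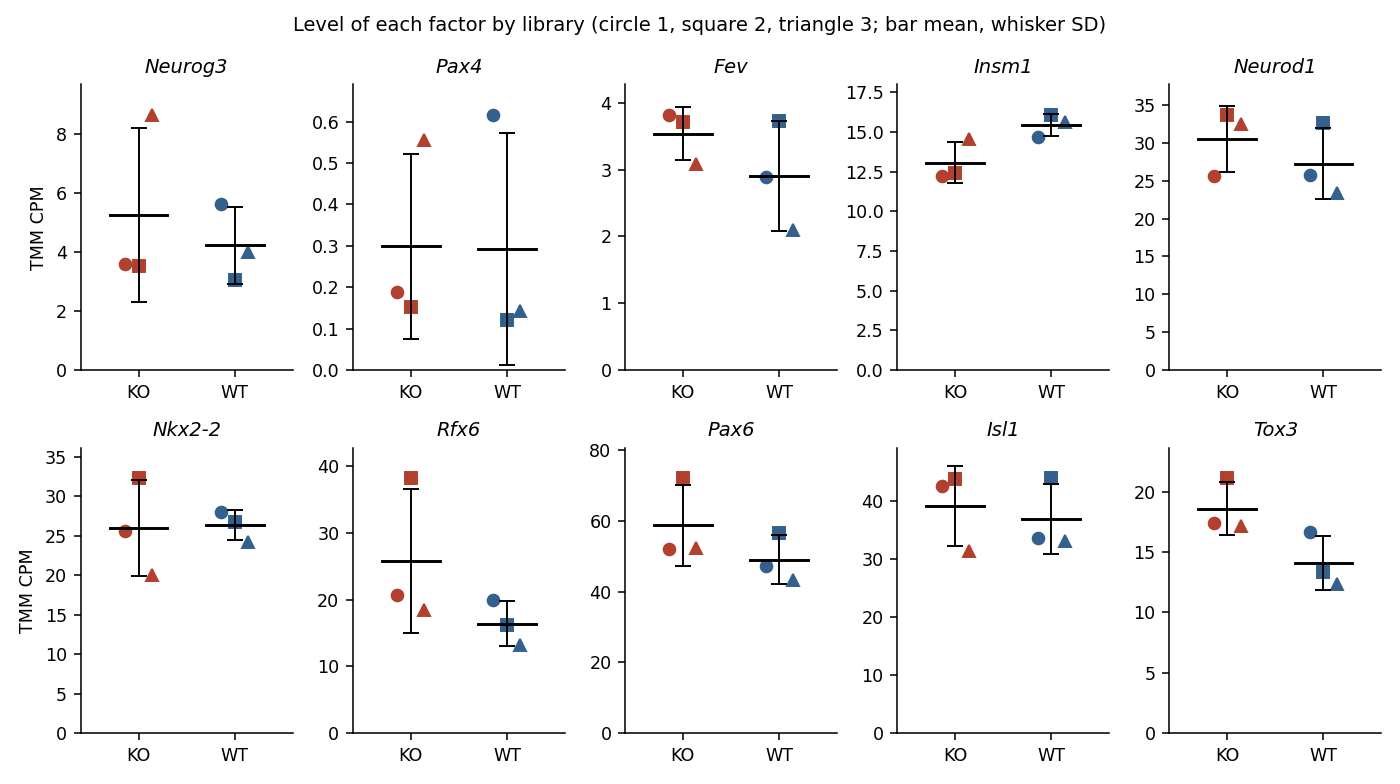
TMM-scaled CPM of each factor by library, KO left of WT, each panel with its own axis from 0. Symbols are single libraries, the bar is the mean and the whisker the SD of 3 libraries. The groups are apart only for Tox3 (17.2 to 21.1 CPM in KO, 12.3 to 16.6 in WT) and Insm1 (12.3 to 14.5 CPM in KO, 14.7 to 16.1 in WT), and the highest Rfx6 value is that of KO 2.

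Neurog3, the basic helix-loop-helix factor that starts endocrine differentiation, lies on chromosome 10 (GRCm38, 62133090 to 62134763, plus strand). It had 3.58, 3.51 and 8.64 CPM in KO 1 to 3, from 76, 69 and 202 reads. It had 5.64, 3.05 and 3.99 CPM in WT 1 to 3, from 119, 76 and 84 reads. The groups overlapped, with KO 3 the highest library of all and the other KO libraries below the mean of WT. Neurog3 averaged 5.24 ± 2.94 CPM in the KO group and 4.22 ± 1.31 CPM in the WT group (SD, n = 3 each). Its log2 fold change was 0.32 ± 0.40 (SE), with a 95% interval from -0.60 to 1.236 and an edgeR adjusted p of 0.79. Without KO 3 the fold change turned to -0.25. Exons of Neurog3 share 273 bases with exons of Fam241b on the opposite strand, which was at 5.45 to 7.23 CPM. The libraries were made with a stranded kit, but the sources used here do not say whether reads were assigned by strand. Reads of that stretch may therefore have been assigned to either gene.

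Pax4, a paired-homeobox factor that directs precursors towards the beta and delta cell fates, lies on chromosome 6 (28442334 to 28449353, minus strand). It was close to the limit of detection, with 4, 3 and 13 reads in KO 1 to 3 and 13, 3 and 3 reads in WT 1 to 3. These reads came to 0.19, 0.15 and 0.56 CPM in KO, against 0.62, 0.12 and 0.14 CPM in WT. KO 3 and WT 1 stood apart from the other 4 libraries, and the groups overlapped. Pax4 did not pass the filter on low counts and was not tested.

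The same libraries, KO 3 and WT 1, were the highest for both Neurog3 and Pax4. Likeness of pattern was measured as the root mean square difference of log2(CPM + 0.5), each gene centred on its mean over the 6 libraries. Pax4 was the factor nearest to Neurog3 at 0.22, where Neurog3 itself varied by 0.47 around its mean. Outside the 10 factors, the nearest of 14582 genes with a mean of at least 1 CPM were Aldh1l1, a folate-pathway dehydrogenase, at 0.13, then Wfikkn1 and Rtl9 at 0.16 and 0.17. Aldh1l1 had 7.87, 6.76 and 18.3 CPM in KO, against 9.24, 6.29 and 8.69 CPM in WT. Its high libraries were KO 3 and WT 1, as for Neurog3. Such likeness over 6 libraries is a description, and many genes can share a pattern over so few points.

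Fev, an ETS-domain factor that marks endocrine precursors after Neurog3 and is also known from serotonergic neurons, lies on chromosome 1 (74881509 to 74885419, minus strand). It had 3.82, 3.71 and 3.08 CPM in KO, against 2.89, 3.73 and 2.09 CPM in WT. The KO libraries lay close together, and WT 2 was as high as KO 1 and KO 2. Fev averaged 3.54 ± 0.40 CPM in the KO group and 2.90 ± 0.82 CPM in the WT group (SD, n = 3 each). The log2 fold change was 0.28 ± 0.26 (SE), with a 95% interval from -0.32 to 0.88 and an edgeR adjusted p of 0.71, and it was 0.098 without WT 3. The nearest patterns outside the factors were those of Cfap54 and 1700088E04Rik, both at 0.07, and Nkain4, also at 0.07.

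Insm1, a zinc-finger repressor that acts downstream of Neurog3, is a single-exon gene on chromosome 2 (146221921 to 146225020, plus strand). It had 12.3, 12.4 and 14.5 CPM in KO, against 14.7, 16.1 and 15.6 CPM in WT. All 3 KO libraries were below all 3 WT libraries, KO 3 narrowly so. Insm1 averaged 13.1 ± 1.28 CPM in the KO group and 15.5 ± 0.71 CPM in the WT group (SD, n = 3 each). The difference did not pass the test, with a log2 fold change of -0.24 ± 0.12 (SE), a 95% interval from -0.52 to 0.04 and an edgeR adjusted p of 0.47. In TPM the groups overlapped, at 7.97, 7.32 and 9.99 TPM in KO and 8.78, 11.2 and 8.46 TPM in WT. The deposited TPM carries no TMM factors, so its scaling between libraries also differs from that of CPM. Which part of the scaling made the groups overlap was not tested. TPM divides reads by transcript length before scaling and allows levels of different genes to be compared.

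Neurod1, a basic helix-loop-helix factor that Neurog3 activates and that in turn activates the insulin gene, lies on the same chromosome (79452521 to 79456751, minus strand). Its level was 25.6, 33.7 and 32.5 CPM in KO, against 25.8, 32.6 and 23.5 CPM in WT. KO 1 was near the low WT libraries and WT 2 near the high KO libraries. The means were 30.6 ± 4.37 CPM in the KO group and 27.3 ± 4.74 CPM in the WT group (SD, n = 3 each). The log2 fold change was 0.16 ± 0.16 (SE), with a 95% interval from -0.20 to 0.52 and an edgeR adjusted p of 0.72, and it was 0.071 without WT 3. This is 1 of the 2 factors with a match to the miR-216a-3p seed printed above. Exons of Neurod1 share 201 bases with exons of Cerkl on the same strand, which was at 2.99 to 4.68 CPM, so a small number of reads could belong to either gene.

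Nkx2-2, a homeobox factor needed for beta cells, whose loss in mice turns islet cells towards ghrelin production, lies on chromosome 2 as well (147177546 to 147194243, minus strand). It had 25.6, 32.3 and 20.1 CPM in KO, against 28, 26.8 and 24.3 CPM in WT. KO 2 was the highest library and KO 3 the lowest, with all WT libraries between KO 2 and KO 3. Means were 26.0 ± 6.10 CPM in the KO group and 26.3 ± 1.91 CPM in the WT group (SD, n = 3 each). The log2 fold change was -0.02 ± 0.17 (SE), with a 95% interval from -0.41 to 0.37 and an edgeR adjusted p of 0.97. Its sign turned without KO 3, at 0.13, and without WT 1, at 0.03.

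Rfx6, an RFX-family factor downstream of Neurog3 that is required for most islet cell types, lies on chromosome 10 (51677756 to 51730432, plus strand). It had 20.7, 38.1 and 18.5 CPM in KO, against 19.9, 16.2 and 13.2 CPM in WT. KO 2 stood far above the rest, and KO 3 was below WT 1, so the groups overlapped. Rfx6 averaged 25.8 ± 10.75 CPM in the KO group and 16.4 ± 3.38 CPM in the WT group (SD, n = 3 each). It had the largest fold change of the 9 factors tested, with a log2 value of 0.65 ± 0.28 (SE), a 95% interval from -0.001 to 1.30 and an edgeR adjusted p of 0.40. Much of this value rested on KO 2. Without that library the log2 fold change was 0.25, with an edgeR adjusted p of 0.66. KO 2 was also 1 of the 2 libraries rich in erythroid genes. The other such library, WT 1, had 19.9 CPM, the highest Rfx6 level of the WT group. The part of the erythroid share in the Rfx6 level was not tested beyond a fit with the erythroid level as a covariate. In that fit the log2 fold change was 0.89 and the edgeR adjusted p was 0.11, and without both WT 1 and KO 2 the log2 fold change was 0.41.

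Pax6, a paired-homeobox factor that keeps hormone genes active in islet cells and is best known from the eye, lies on chromosome 2 (105668900 to 105697364, plus strand). It had 52.1, 72.0 and 52.2 CPM in KO, against 47.1, 56.7 and 43.3 CPM in WT. KO 2 was the highest library, and WT 2 was above KO 1 and KO 3. Pax6 averaged 58.8 ± 11.5 CPM in the KO group and 49.1 ± 6.87 CPM in the WT group (SD, n = 3 each). The log2 fold change was 0.26 ± 0.16 (SE), with a 95% interval from -0.10 to 0.62 and an edgeR adjusted p of 0.55. Without KO 2 the log2 fold change was 0.085. Pax6 and Neurod1 had the nearest patterns of any pair of the 10 factors, with a root mean square difference of 0.13.

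Isl1, a LIM-homeodomain factor of all islet cell types and of sensory and motor neurons, lies on chromosome 13 (116298281 to 116309689, minus strand). Values were 42.5, 43.8 and 31.3 CPM in KO, against 33.7, 43.9 and 33.1 CPM in WT. KO 3 was the lowest library and WT 2 the highest, so the groups overlapped throughout. The means were 39.2 ± 6.86 CPM in the KO group and 36.9 ± 6.06 CPM in the WT group (SD, n = 3 each). Its log2 fold change was 0.08 ± 0.16 (SE), with a 95% interval from -0.29 to 0.46 and an edgeR adjusted p of 0.88, and it turned to -0.003 without KO 2.

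Tox3, which encodes an HMG-box nuclear protein, lies on chromosome 8 (90247040 to 90348343, minus strand). It had 17.4, 21.1 and 17.2 CPM in KO, against 16.6, 13.3 and 12.3 CPM in WT. All KO libraries were above all WT libraries, with a narrow gap between KO 3 and WT 1. Tox3 averaged 18.6 ± 2.19 CPM in the KO group and 14.1 ± 2.25 CPM in the WT group (SD, n = 3 each). The log2 fold change was 0.40 ± 0.15 (SE), with a 95% interval from 0.05 to 0.75 and an unadjusted p of 0.031, but the edgeR adjusted p was 0.34 and Tox3 was not called. Per transcript length all KO libraries were again above WT, with 9.13, 9.69 and 9.37 TPM in KO and 8.08, 7.31 and 5.46 TPM in WT. The nearest patterns outside the factors were those of Psg16 and Pan3, both at 0.04, and Rpp40, also at 0.04. Tox3 carries 2 of the 3 matches to miR-216a-3p printed above.

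**Figure D2:**
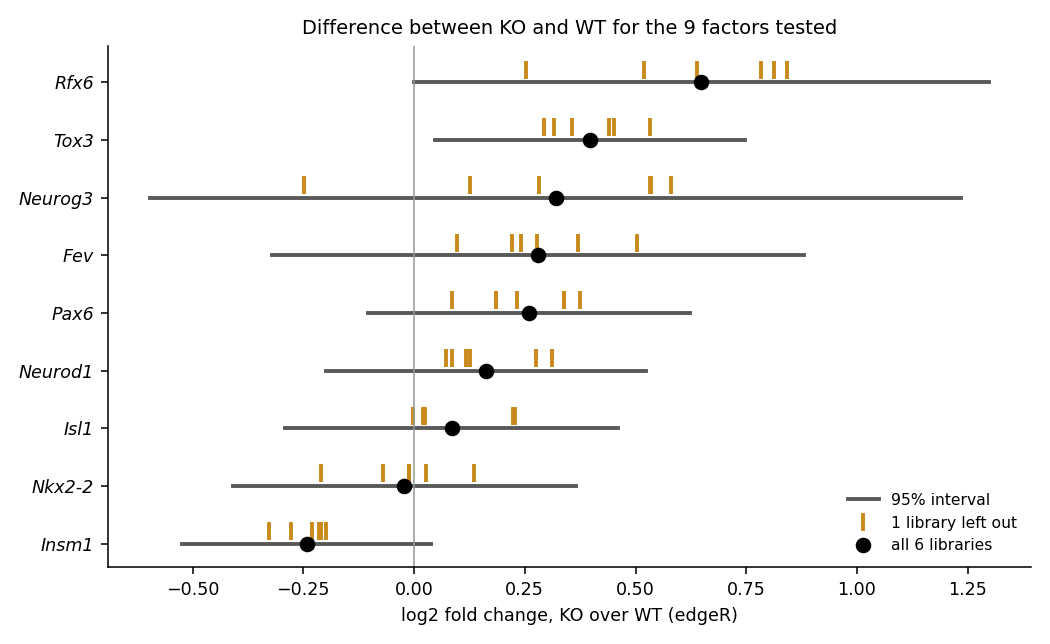
log2 fold change, KO over WT, of the 9 factors tested (edgeR), ordered by size. Points are the fit of all 6 libraries, bars the 95% interval and orange ticks the 6 fits that leave out 1 library each. The bar of Tox3 lies above 0 (0.05 to 0.75), that of Rfx6 starts at -0.001, and the Rfx6 tick at 0.25 and the Neurog3 tick at -0.25 are the fits without KO 2 and without KO 3.

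Across the 10 factors the libraries did not move as a block. KO 2 was the highest library for Neurod1, Nkx2-2, Rfx6, Pax6 and Tox3, and WT 3 was the lowest for Fev, Neurod1, Rfx6, Pax6 and Tox3. Neurog3 and Pax4 followed neither, being high in KO 3 and WT 1. The summed level of all 10 was 203.7, 260.7 and 198.5 CPM in KO, against 195, 212.4 and 171.5 CPM in WT. KO 2 was the highest and WT 3 the lowest, and WT 2 was above KO 1 and KO 3. The sums averaged 221 ± 34.5 CPM in the KO group and 193 ± 20.5 CPM in the WT group (SD, n = 3 each), a ratio of 1.15.

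**Figure D3:**
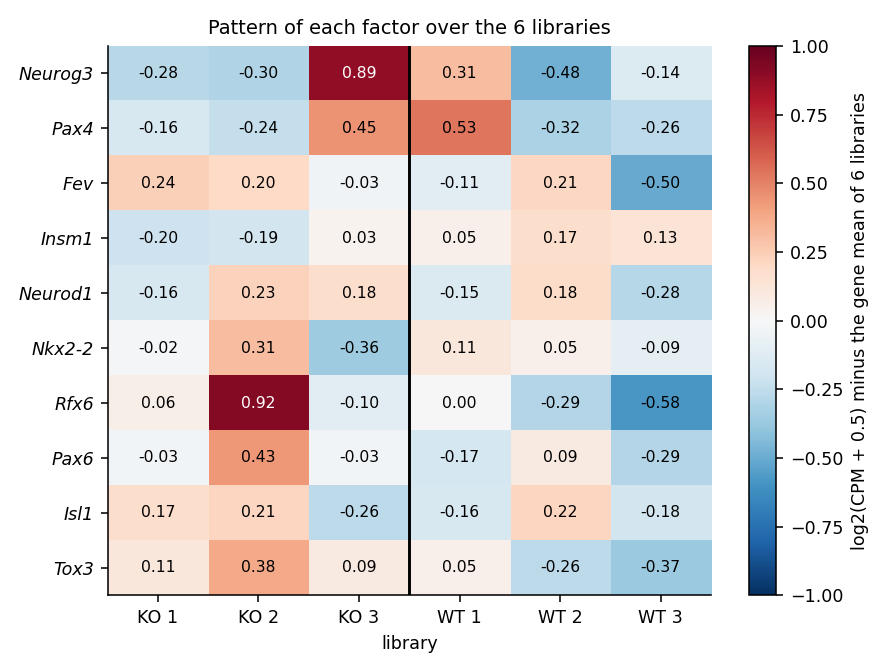
Pattern of each factor over the 6 libraries, as log2(CPM + 0.5) minus the mean of that gene, KO libraries left of the black line and WT libraries right of it. Neurog3 (0.89 in KO 3 and 0.31 in WT 1) and Pax4 (0.45 and 0.53) share their high libraries, and Rfx6 reaches 0.92 in KO 2.

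Per transcript length, Pax6, Nkx2-2, Isl1 and Neurod1 were the most abundant of the factors and Fev, Neurog3 and Pax4 the least. Over the 6 libraries Pax6 averaged 34.2 ± 6.31 TPM, Nkx2-2 32.2 ± 4.18, Isl1 27.3 ± 5.38 and Neurod1 18.5 ± 3.42 TPM (SD, n = 6). Rfx6, Insm1 and Tox3 followed with 9.003 ± 3.404, 8.95 ± 1.41 and 8.17 ± 1.598 TPM, then Fev with 4.98 ± 1.56 and Neurog3 with 4.28 ± 2.10 TPM. Pax4 was last with 0.34 ± 0.27 TPM. Only the step between Neurog3 and Pax4 separated all 6 values of one factor from all 6 of the next. Within a library, Isl1 was above Neurod1, Neurod1 above Rfx6 and Tox3 above Fev in 6 of 6 libraries, whereas Rfx6 was above Insm1 in only 2 of 6. The TPM of Nkx2-2 includes short noncoding transcripts, described below. These levels sum all annotated transcripts, and the coding share differed between factors. Coding transcripts held 61.1% of the TPM of Nkx2-2, 62.7% of Fev, 64.1% of Isl1, 72.3% of Pax6 and 72.8% of Rfx6. They held 92.6% for Neurog3 and 100% for Insm1, Neurod1, Tox3 and Pax4. The order by coding transcripts alone may therefore differ and was not tested.

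**Figure D4:**
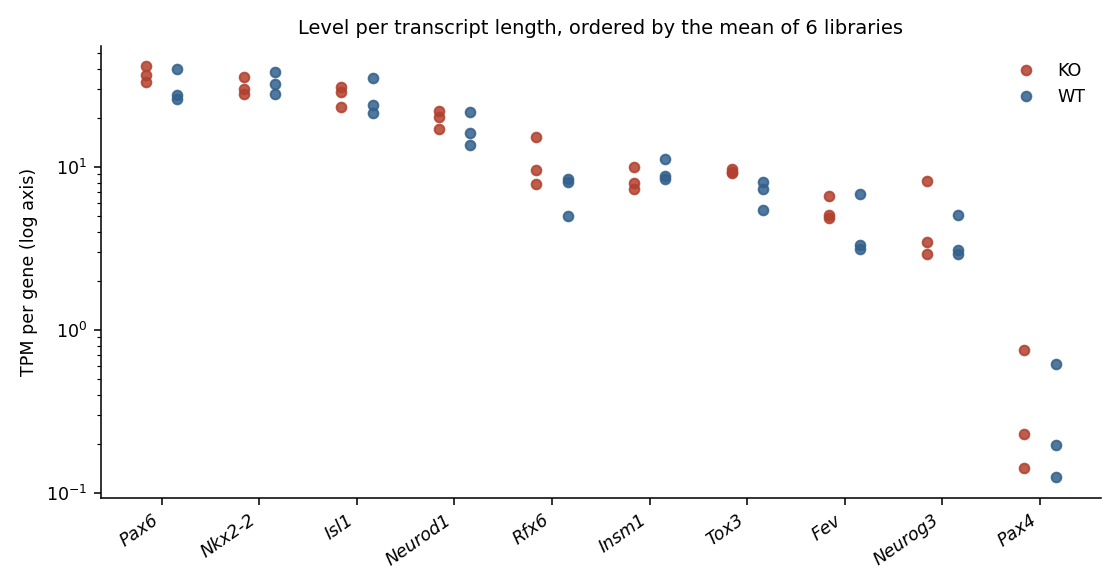
Level per transcript length (TPM, log axis) of each factor, ordered by the mean of 6 libraries, with the 3 KO libraries left of the 3 WT libraries. The factors run from Pax6 at 34.2 TPM to Pax4 at 0.34 TPM, and neighbours overlap except for Neurog3 and Pax4.

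To set the factors against other endocrine RNA of the same library, each was divided by the summed CPM of 22 granule genes of endocrine cells, such as Chga, which encodes chromogranin A. That sum was 2140, 2535 and 2402.1 CPM in KO, against 2173, 2714 and 2361 CPM in WT, and the groups overlapped. Pax6 was at 24.3, 28.4 and 21.74 per 1000 granule CPM in KO, against 21.7, 20.9 and 18.4 in WT. The groups were apart, KO 3 and WT 1 by a narrow gap, with a log2 difference of 0.28 and an exact permutation p of 0.1 (two-sided), the smallest that 3 against 3 libraries allow. That difference was 0.18 without KO 2 and 0.55 with hormone genes in place of granule genes. Tox3 overlapped on this scale, with 8.15, 8.32 and 7.16 per 1000 in KO and 7.65, 4.90 and 5.23 in WT (exact permutation p = 0.2). Insm1 overlapped too, with 5.72, 4.89 and 6.05 per 1000 in KO and 6.76, 5.92 and 6.61 in WT (exact permutation p = 0.2). The exact permutation p of the other tested factors ran from 0.2 for Rfx6 and Neurod1 to 0.9 for Nkx2-2. Unlike the granule genes, the hormone genes summed lower in all KO libraries, at 6241, 6407 and 5821 CPM in KO, against 6828, 8712 and 7303 CPM in WT, with 0 of 10 called. Of the 10, 4 had a higher and 6 a lower mean in KO. Ins1, Ins2 and Sst, 3 of the 10, were below WT in all KO libraries, where 10.3% of all tested genes were. Ins2 averaged 2206 CPM in KO and 3027 CPM in WT, while Gcg averaged 1429 and 1400 CPM. The hormone denominator raises the log2 difference of every factor by the same amount.

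Several factors have more than 1 annotated start, and the reads of their transcripts were compared by start, a grouping chosen after values had been seen. Nkx2-2 has a coding start and, 7839 bases upstream, a start that gives only noncoding transcripts. The coding start held 62.0, 65.9 and 65.0% of the gene's TPM in KO and 61.5, 56.6 and 55.8% in WT. The groups were apart, though KO 1 and WT 1 lay close, and the exact permutation p was 0.1, the smallest that 3 against 3 libraries allow. The noncoding transcripts are short and took few reads, 32.8, 37.9 and 31.7 in KO and 38.6, 55.8 and 44.0 in WT, against 438 to 612 reads from the coding start. Their share of TPM is therefore far above their share of reads. By reads, the coding start held 93.96, 94.03 and 93.25% in KO, against 93.5, 91.6 and 91.4% in WT. On that scale KO 3 was below WT 1 and the groups overlapped (exact permutation p = 0.2), so the separation was seen in TPM only. The difference between the means, KO minus WT, was 6.32 points by TPM and 1.58 points by reads. Exons of Nkx2-2 also share 278 bases with the antisense gene Nkx2-2os, and no values for that gene were used here.

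Rfx6 has its main start upstream, which held 82.3, 65.2 and 100% of the gene's TPM in KO and 82.6, 62.4 and 100% in WT. A second coding start, 7762 bases downstream, had 79.2, 240.9 and 0 estimated reads in KO and 62.0, 145 and 0 in WT. KO 3 and WT 3 had no reads assigned to it, and the other 4 libraries from both groups had 62.0 to 240.9. The exact permutation p for the share of the downstream start was 1.0 (two-sided). In KO 2, the library with the most Rfx6, both starts had their highest read numbers, with 488.9 on the upstream one.

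**Figure D5:**
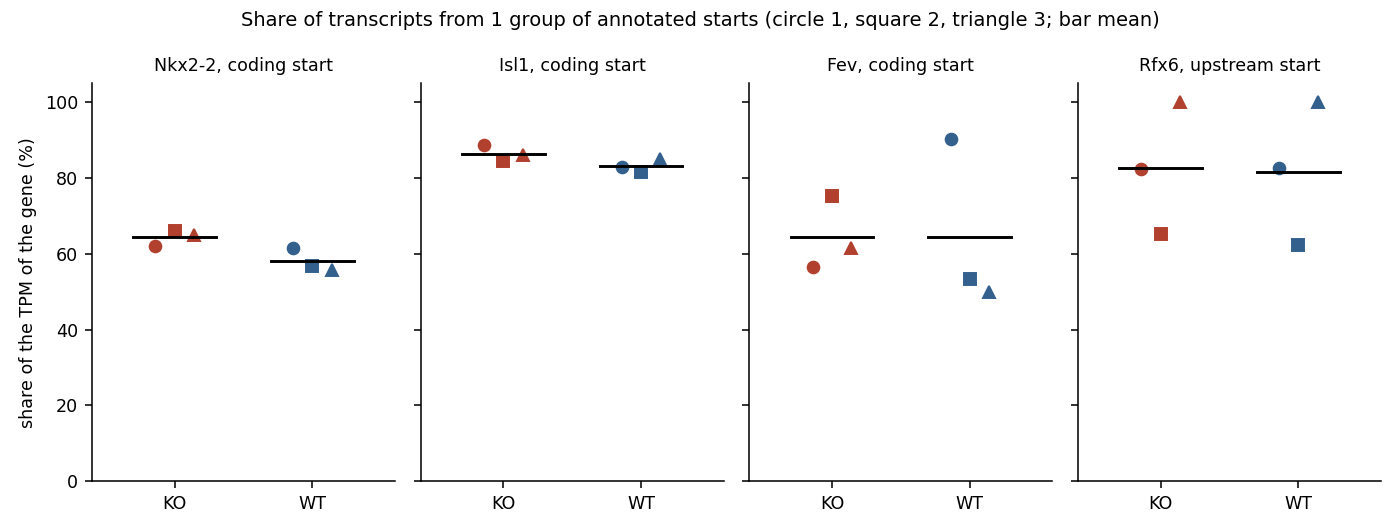
Share of the gene's TPM on transcripts from 1 group of annotated starts, KO left of WT, symbols for single libraries and a bar for the mean of 3. The coding start of Isl1 includes a retained-intron transcript. The coding start of Nkx2-2 was higher in KO (62.0 to 65.9%) than in WT (55.8 to 61.5%) by TPM, while its share of reads overlapped (93.25 to 94.03% in KO, 91.4 to 93.5% in WT), and the Rfx6 upstream start spans 65.2 to 100% in KO and 62.4 to 100% in WT.

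The promoters of these starts are printed because the start shares bear on them, from RefSeq (GRCm38.p6), minus strand for Nkx2-2 and plus strand for Rfx6. Each runs 5′ to 3′ from 250 bases before the start to 50 after it. Capitals mark E-boxes, CANNTG, the motif of basic helix-loop-helix factors such as Neurog3 and Neurod1.
Nkx2-2, coding start, chr2:147186353-147186652: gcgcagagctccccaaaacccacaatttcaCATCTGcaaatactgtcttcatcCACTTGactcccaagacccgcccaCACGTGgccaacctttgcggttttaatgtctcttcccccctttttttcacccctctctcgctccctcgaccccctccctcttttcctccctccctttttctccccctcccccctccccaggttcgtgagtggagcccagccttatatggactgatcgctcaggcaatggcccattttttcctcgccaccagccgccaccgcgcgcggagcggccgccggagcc
Rfx6, downstream start, chr10:51685268-51685567: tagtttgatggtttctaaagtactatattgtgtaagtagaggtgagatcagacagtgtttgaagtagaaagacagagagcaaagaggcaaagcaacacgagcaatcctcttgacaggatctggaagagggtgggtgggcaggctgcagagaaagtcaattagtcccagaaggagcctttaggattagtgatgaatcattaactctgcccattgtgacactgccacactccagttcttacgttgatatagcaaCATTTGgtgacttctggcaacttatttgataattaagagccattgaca

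The Nkx2-2 promoter holds 3 E-boxes and the Rfx6 one holds 1, and both strands were read, since CANNTG is its own reverse complement. Of 32851 mouse promoters of the same length, 72.3% hold at least 1 E-box. RefSeq promoters were matched for 8 of the 10 factors, 9 promoters in all. The E-box form CAGCTG, present in 16.3% of all promoters, was found in those of Neurog3, Isl1 and Tox3, and CATATG, present in 3.91%, in that of Neurod1. The form CAGATG, present in 17.2%, was found in that of Nkx2-2, where it reads CATCTG on the printed strand. A motif match is a description of letters and shows no binding.

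No start group of Fev, Isl1 or Pax6 had a share of TPM that kept KO and WT apart. The coding start of Fev held 64.4 ± 9.67% of its TPM in KO and 64.5 ± 22.4% in WT (SD, n = 3 each, exact permutation p = 1.0). The rest of Fev came from Fev-203, a retained-intron transcript with 1.49 to 16.7 reads per library. The coding start of Isl1 held 86.4 ± 2.02% in KO and 83.1 ± 1.82% in WT (SD, n = 3 each, exact permutation p = 0.2). Pax6 has 26 annotated transcripts from 12 starts, and its first start held 36.1 ± 6.87% in KO and 34.4 ± 10.3% in WT (SD, n = 3 each, exact permutation p = 0.8). Within 1 start group, 6209 bases downstream of the first, a pair of coding Pax6 transcripts did differ in their estimated reads, and both were singled out after their values were seen and not tested. Pax6-204 had 0, 0 and 0 reads in KO, against 197.8, 130 and 114.6 reads in WT. Pax6-225 had 173.7, 211 and 206.9 reads in KO, against 108.2, 0 and 0 reads in WT. KO and WT did not overlap for either transcript, with opposite directions. The pair was picked from 22 Pax6 transcripts with reads, and the share of all transcripts without overlap was not counted. Of all tested genes, 19.4% had groups without overlap. The start group as a whole held 21.1, 22.2 and 24.6% of the TPM of Pax6 in KO, against 36.6, 22.3 and 20.5% in WT, with overlap. Salmon divides reads that fit several transcripts of a gene by estimate, so the reads of single overlapping transcripts are uncertain. The share of the most abundant transcript, KO minus WT, differed by -2.26 points for Fev, 0.68 for Nkx2-2, 1.41 for Rfx6, 2.64 for Pax6 and 1.37 for Isl1, with exact permutation p from 0.6 to 1.0. Neurog3, Insm1, Neurod1 and Tox3 each have 1 start group, and Pax4 had too few reads to compare starts.

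Of 34 further lineage factors, 32 were tested, 20 with a higher and 12 with a lower mean in KO and 0 called, with a median log2 fold change of 0.09. Mafa, which drives beta cell maturation, had 11.8, 12.04 and 8.81 CPM in KO, against 16.1, 20.8 and 17.9 CPM in WT. All KO libraries were below WT, with a log2 fold change of -0.75 ± 0.16 (SE) and an edgeR adjusted p of 0.21. Rfx3, of the same family as Rfx6, had 20.6, 26.1 and 23.1 CPM in KO, against 19.5, 19.0 and 13.9 CPM in WT, again without overlap (log2 fold change 0.42 ± 0.16 SE, edgeR adjusted p = 0.33). Sox11 had a log2 fold change of -0.54 and overlapping groups. Of the factors named by role, Pdx1, which is shared by pancreatic progenitors and beta cells, averaged 20.5 ± 3.10 CPM in KO, against 25.7 ± 3.60 CPM in WT (SD, n = 3 each). The beta cell factor Nkx6-1 had a mean of 27.6 ± 3.66 CPM in KO, against 28.4 ± 2.92 CPM in WT (SD, n = 3 each). The groups of both factors overlapped.

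Other genes of endocrine progenitors were read against the Neurog3 level. Of 17 with a match, 14 were tested, 9 with a higher and 5 with a lower mean in KO and 0 called, with a median log2 fold change of 0.04. Amotl2, Cbfa2t3 and Cdkn1a had the smallest unadjusted p. Amotl2 had 53.1, 44.8 and 66.2 CPM in KO, against 44.1, 36.0 and 39.9 CPM in WT, a narrow gap without overlap. Cdkn1a, the cell cycle inhibitor p21, had 33.4, 43.3 and 95.1 CPM in KO, against 31.5, 36.0 and 44.6 CPM in WT. KO 3, the library with the most Neurog3, stood far above the rest. WT 1, the WT library with the most Neurog3, had the lowest Cdkn1a level of all libraries. KO 3 also had the lowest summed level of the S, G2 and M phase list, and what set the Cdkn1a level was not tested. Dll1, the Notch ligand that Neurog3 activates, had 4.52, 5.13 and 5.47 CPM in KO, against 5.50, 5.73 and 6.55 CPM in WT, with all KO libraries below WT and no peak in KO 3. None of these passed the test, and none is specific to endocrine progenitors in a whole organ.

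On the side of the multipotent and ductal progenitors, which Notch signalling keeps from switching on Neurog3, 16 of 16 genes were tested, 10 with a higher and 6 with a lower mean in KO and 0 called. Sox9, which is needed upstream of Neurog3, had 54.3, 34.96 and 27.9 CPM in KO, against 58.2, 42.5 and 54.1 CPM in WT, with overlap. Hes1, the Notch target that represses Neurog3, averaged 20.7 ± 3.34 CPM in the KO group and 22.02 ± 1.36 CPM in the WT group (SD, n = 3 each).

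Marker lists of other cells that use these factors or border the pancreas were also read, and the genes named from them here were chosen after their values were seen. The 12 intestinal genes summed to 37.5, 56.5 and 43.02 CPM in KO, against 67.0, 31.3 and 25.8 CPM in WT, and the groups overlapped. In their mean over the 6 libraries 7 of the 12 were under 1 CPM, among them Cdx1 and Cdx2, which define intestinal identity and were at 0 to 0.17 CPM. Of the 5 intestinal genes tested, 3 had a higher and 2 a lower mean in KO, and 0 were called. Lgals4, which encodes galectin-4 of the gut epithelium, had 15.5, 23.3 and 18.9 CPM in KO, against 8.43, 9.34 and 7.88 CPM in WT. All its KO libraries were above all WT libraries, with a log2 fold change of 1.17 ± 0.17 (SE), an unadjusted p of 0.00013 and an edgeR adjusted p of 0.21. Vil1 and Olfm4 were the 2 tested genes with a lower mean in KO. Vil1 had 9.19, 10.1 and 7.74 CPM in KO, against 11.6, 9.94 and 12.1 CPM in WT, with overlap and a log2 fold change of -0.32. Olfm4, a crypt cell gene, was at 3.38 to 21.1 CPM in KO and 4.04 to 25.4 CPM in WT. Apoa4, an apolipoprotein gene of gut and liver, was at 0.10 to 7.36 CPM in KO and 0.16 to 6.25 CPM in WT. Fabp1, a fatty acid binding protein gene of the same organs, had 13.8 CPM in WT 1, the library with the most Alb, and 0 to 1.2 CPM in the other 5 libraries.

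Of 9 enteroendocrine genes 6 had a mean over the 6 libraries under 1 CPM, among them Gip and Sct, gut hormone genes. The list summed to 28.5 to 52.2 CPM in KO and 43.0 to 52.5 CPM in WT, and 0 of its 4 tested genes were called. Most of each sum came from 1 gene, Ddc, at 18.9 to 43.15 CPM in KO and 32.9 to 44.2 CPM in WT. Neuronal genes summed to 119.3 to 150.3 CPM in KO and 128.9 to 168.5 CPM in WT. Of 17 neuronal genes tested, 3 had a higher and 14 a lower mean in KO, and 0 were called. Phox2a was at 0.41 to 0.94 CPM in KO and 0.33 to 1.18 CPM in WT, and Dbh at 0 to 0.21 CPM in KO and 0 to 0.047 CPM in WT. The part of gut cells and neurons in the levels of the factors, among them Isl1, Fev and Insm1, which neurons also express, was not tested.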

How the data were processed

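RNA was isolated with a pancreas protocol and made into libraries with the NEBnext Ultra II stranded mRNA kit, per the labels' protocols. Per the submitters' processing notes bcl2fastq, DESeq2 1.24.0 and Salmon 0.13.1 were used and the genome build was mm10. The authors deposited, for each library, estimated counts of 116248 transcripts from Salmon, not normalized, and the TPM of each. They also deposited a scaled signal for 17324 genes, which is not counts and was used only in 1 alternative. Transcript and effective lengths, per the file headers, were used for the length offset only.

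Estimated counts of the 115995 transcripts that matched GENCODE M21 by versioned identifier were summed to 35527 genes and rounded to whole numbers. The unmatched transcripts held 0.0341 to 0.0458% of the reads. edgeR 4.0.16 in R 4.3.3 was used with TMM, filterByExpr's default filter and genotype as the only term. The biological coefficient of variation was 18.4%. Single values were compared by exact permutation over libraries (scipy 1.17.1), and the smallest two-sided p for 3 against 3 is 0.1. Alternatives were DESeq2 1.42.0, limma-voom (limma 3.58.1), other scalings and filters, a length offset and each library left out. Chosen after seeing the data were leaving out WT 1 and KO 2, an erythroid covariate, limma on log2(value + 1) of the authors' scaled table, the grouping of transcripts by start within 500 bases, and its share of reads in place of TPM. The tests were run on simulated data first. Counts of every library pair differed by far more than sampling allows (chi-square over its degrees of freedom 21.1 to 80.1), so no library looked like a second copy of another. That the mice are separate rests on the labels. Replicate numbers follow sample order and pair nothing.

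The factors and gene lists were chosen with earlier results of these data known. Further genes were named by rule: the 3 with the smallest unadjusted p in each of 3 lists, and Pdx1, Nkx6-1, Hes1, Sox9, Dll1 and Chga by name. A few genes named by this rule are not reported here. Genes at or under 1 CPM and the library facts, with Ddx3y, Eif2s3y and Alb, are given as values. The lists of duct, glia and mesenchyme genes had 0 called genes each.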

Additional observations from a re-analysis of the deposited data

How the results depend on the processing

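No paired analysis was possible because the labels carry no replicate numbers shared by the groups. Over 17 alternatives per factor, none of the 9 log2 fold changes passed the threshold and 6 of 9 kept their sign. The ranges were 0.10 to 0.50 for Fev, -0.33 to -0.19 for Insm1, 0.05 to 0.31 for Neurod1, 0.06 to 0.38 for Pax6, 0.25 to 0.89 for Rfx6 and 0.29 to 0.53 for Tox3. Over the same 17 the other 3 ran from -0.25 to 0.80 for Neurog3, -0.21 to 0.13 for Nkx2-2 and -0.065 to 0.23 for Isl1. The Neurog3 value of 0.80 was that without both WT 1 and KO 2. With 1 library left out these 3 ran from -0.25 to 0.58 for Neurog3, -0.21 to 0.13 for Nkx2-2 and -0.0034 to 0.23 for Isl1. Sign turned for Neurog3 without KO 3 (-0.25), for Isl1 without KO 2 (-0.0034) and without both WT 1 and KO 2 (-0.065), and for Nkx2-2 without KO 3 (0.13), without WT 1 (0.03) and with the erythroid covariate (0.10). The count of called genes, 0 in edgeR (1996 at an unadjusted p under 0.05), was 1 with no filter, 419 with DESeq2, 2 with limma-voom, 2 without both WT 1 and KO 2, and between 0 and 362 when 1 library was left out, 362 being without KO 1. The cause was not tested. No factor was among the called genes in any of these. The ratio of summed levels was 1.04 to 1.21 with 1 library left out. Per granule CPM, the log2 difference turned for Neurog3 without KO 3 (-0.16) and WT 2 (-0.05), for Insm1 with hormone genes as denominator (0.054), for Isl1 without KO 1 (-0.020), and for Nkx2-2 with hormone genes (0.26), a geometric mean (0.033), without KO 3 (0.17) and without WT 1 (0.11). With 1 library left out these 3 ran from -0.16 to 0.56 for Neurog3, -0.13 to 0.17 for Nkx2-2 and -0.020 to 0.28 for Isl1. The share of the leading transcript, in points, turned for Fev without KO 1 (0.63) and WT 1 (10.6), for Nkx2-2 with reads in place of TPM (-2.86) and without KO 1 (-4.33), WT 2 (-0.79) and WT 3 (-0.95), for Rfx6 without KO 3 (-9.26) and WT 2 (-10.10), and for Isl1 with reads (-0.29) and without KO 1 (-0.03) and WT 2 (-0.74). With 1 library left out these shares ran from -9.58 to 10.6 for Fev, -4.33 to 6.02 for Nkx2-2, -10.10 to 11.5 for Rfx6 and -0.74 to 2.998 for Isl1. The share of the Nkx2-2 coding start, also looked at after seeing the data, differed by 5.24 to 8.07 points with 1 library left out and by 1.58 points by reads. Depth limits Pax4, at 3 to 13 reads per library, and group size limits all 10 factors.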
